A study of Mus musculus with 10 samples.

Results

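Myc, Mycn, Max, Mxi1, Mxd3 and Mxd4 were followed across mouse brain tumours and neurospheres in which p53 and Rb can be deleted. A gene was read from the transcript cluster, the unit of the array that gathers the probes of 1 gene, whose annotation names that symbol alone. Of the 6 genes, 5 were read in this way, each from 1 transcript cluster, out of 14807 named genes and 23238 transcript clusters on the array. No transcript cluster was annotated to Mxi1, which was not analysed here. Values are log2 expression, so a difference of 1 is a doubling.

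RNA from 10 samples was hybridised to Affymetrix mouse exon arrays, 1 array a sample. Every sample, the controls included, came from mice of a mixed background (C57, FVB and mainly 129 Ola) homozygous for floxed p53 and Rb, in which adenovirus carrying Cre recombinase (AdCre) deletes both genes. The 5 groups were 3 primitive neuroectodermal tumours (PNET) of mice that received AdCre in the brain ventricles, 1 oligo-astrocytoma induced by the same route (sample number 44), 3 oligo-astrocytomas grown from grafted spheres transduced with AdCre in culture (numbers 4, 5 and 6), 2 AdCre-transduced neurosphere cultures, and 1 neurosphere culture transduced with a GFP virus (AdGFP), which received no Cre. Neurospheres are floating cultures of stem-like cells, here from the subventricular zone and at passage 3. The labels do not say which brain cells took up the virus, which host carried the grafts, the age of the mice, or whether samples of a group came from separate animals or cultures. The p-values therefore measure only the spread between these samples, and precision is set by how few arrays there are.

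Myc, Mycn and Mycl are transcription factors that act as dimers with Max, bind the E-box CACGTG, and raise genes of ribosome building, metabolism and growth. Max also pairs with Mxd1, Mxi1, Mxd3, Mxd4, Mnt and Mga, which bind the same sites and recruit repressors, so Max is the shared partner of opposing factors. In the developing brain Mycn drives the growth of neural progenitors, and Mxd genes are generally linked to leaving the cell cycle, with Mxd3 an exception found in dividing progenitors. E2F factors, which Rb holds in check, bind near the start of Mycn and of many genes of DNA synthesis.

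The promoters of Mycn, Max and Mxd4 are shown because they hold matches to the sites named above. They run 5′ to 3′ from 250 bases before to 50 bases after the gene's start, as given by RefSeq for GRCm38.p6, a later build than the mm8 used for the arrays, and all lie on the minus strand. Capitals mark E-boxes (CACGTG) or E2F motifs (TTTCCCGC, TTTGGCGC, TTTCGCGC or TTTGCCGC, on either strand).
Mycn promoter, chr12:12941787-12942086: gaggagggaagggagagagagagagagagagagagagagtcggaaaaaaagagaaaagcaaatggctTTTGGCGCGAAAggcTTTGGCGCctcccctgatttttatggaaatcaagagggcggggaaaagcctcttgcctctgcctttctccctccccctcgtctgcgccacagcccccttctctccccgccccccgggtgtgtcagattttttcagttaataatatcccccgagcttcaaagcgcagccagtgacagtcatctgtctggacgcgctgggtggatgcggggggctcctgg
Max promoter, chr12:76962199-76962498: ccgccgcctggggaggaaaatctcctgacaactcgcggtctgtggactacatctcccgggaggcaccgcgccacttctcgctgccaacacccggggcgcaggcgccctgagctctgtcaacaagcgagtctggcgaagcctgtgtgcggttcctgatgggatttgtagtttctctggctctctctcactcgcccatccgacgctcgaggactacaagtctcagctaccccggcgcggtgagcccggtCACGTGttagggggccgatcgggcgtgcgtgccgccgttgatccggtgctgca
Mxd4 promoter, chr5:34187661-34187960: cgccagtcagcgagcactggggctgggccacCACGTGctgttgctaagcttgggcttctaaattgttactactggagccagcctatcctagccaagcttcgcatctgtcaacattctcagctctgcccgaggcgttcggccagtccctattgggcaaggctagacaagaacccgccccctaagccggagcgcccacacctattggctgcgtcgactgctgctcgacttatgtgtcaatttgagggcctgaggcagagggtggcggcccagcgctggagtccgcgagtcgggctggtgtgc
The Mycn promoter held 3 E2F matches and no E-box. They were TTTGGCGC at position -183, TTTCGCGC on the other strand at -179, overlapping it, and TTTGGCGC again at -168. Of all 32851 promoters in the table, 2.26% held at least 1 of these E2F motifs and 0.0974% held at least 2. Max held an E-box at position -3 and Mxd4 at -219, against 7.15% of all promoters with 1 or more. The promoters of Mxd3 and Mxi1 held no match to either kind of motif, and that of Myc is not shown. A match describes the letters and not a bound site.

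The arrays resembled each other in their medians, which lay between 5.872 and 6.065, and each correlated with another at 0.958 or more. Rb1, a targeted gene, read 7.48 to 7.64 in the PNETs, 6.36 to 7.24 in the oligo-astrocytomas and 6.34 and 6.65 in the AdCre spheres, against 8.49 in the AdGFP sphere. Its probes may lie outside the deleted part, so these values do not by themselves check the deletion. Markers of photoreceptor and pineal cells had mean levels of 7.81 to 8.53 in the PNETs and 4.23 to 4.27 in the oligo-astrocytomas, while oligodendrocyte precursor markers lay at 5.44 to 5.52 in the PNETs and 9.41 to 9.46 in the oligo-astrocytomas. Neural stem cell markers were highest in the spheres, at 9.74 to 10.16, against 6.70 to 6.80 in the PNETs. In tissue, fewer cells of a type and less RNA per cell cannot be told apart.

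In PNETs relative to oligo-astrocytomas, Myc and Mxd4 were lower and Max was higher. Across the array 5.53% of transcript clusters were higher and 7.20% lower in this comparison at an adjusted p under 0.05, beside 1 higher and 2 lower of the 5 genes read. In oligo-astrocytomas relative to AdCre spheres, Myc was higher and Mxd3 and Mxd4 were lower, beside 10.1% of transcript clusters higher and 22.8% lower. In PNETs relative to AdCre spheres, Myc and Mxd4 were lower and no member was higher, beside 11.0% higher and 25.9% lower. Among named genes alone, 7.06% were higher and 9.26% lower between the tumour types. Relative to AdCre spheres 3.19% of named genes were higher and 28.3% lower in oligo-astrocytomas, and 5.43% and 32.2% in PNETs. These 3 comparisons share samples and are not independent. All tests were limma on every transcript cluster with Benjamini-Hochberg adjustment.

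The sphere arrays had a wider spread of values than the tumour arrays. Upper quartiles were 7.898 to 8 in the spheres and 7.215 to 7.492 in the tumours. Lower quartiles were 4.221 to 4.278 in the spheres and 4.383 to 4.438 in the tumours. The median change of all named genes was -0.35 in oligo-astrocytomas and -0.36 in PNETs relative to AdCre spheres, against -0.01 between the tumour types. After quantile normalization the calls in oligo-astrocytomas against AdCre spheres were 2604 higher and 2870 lower, where the deposited scale gave 2341 and 5291, and the members split into 1 higher and 0 lower. For PNETs against AdCre spheres the same step gave 3267 higher and 3433 lower in place of 2564 and 6026, and 1 member higher and 1 lower. The tumour comparison kept 1 member higher and 2 lower on both scales.

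**Figure D1:**
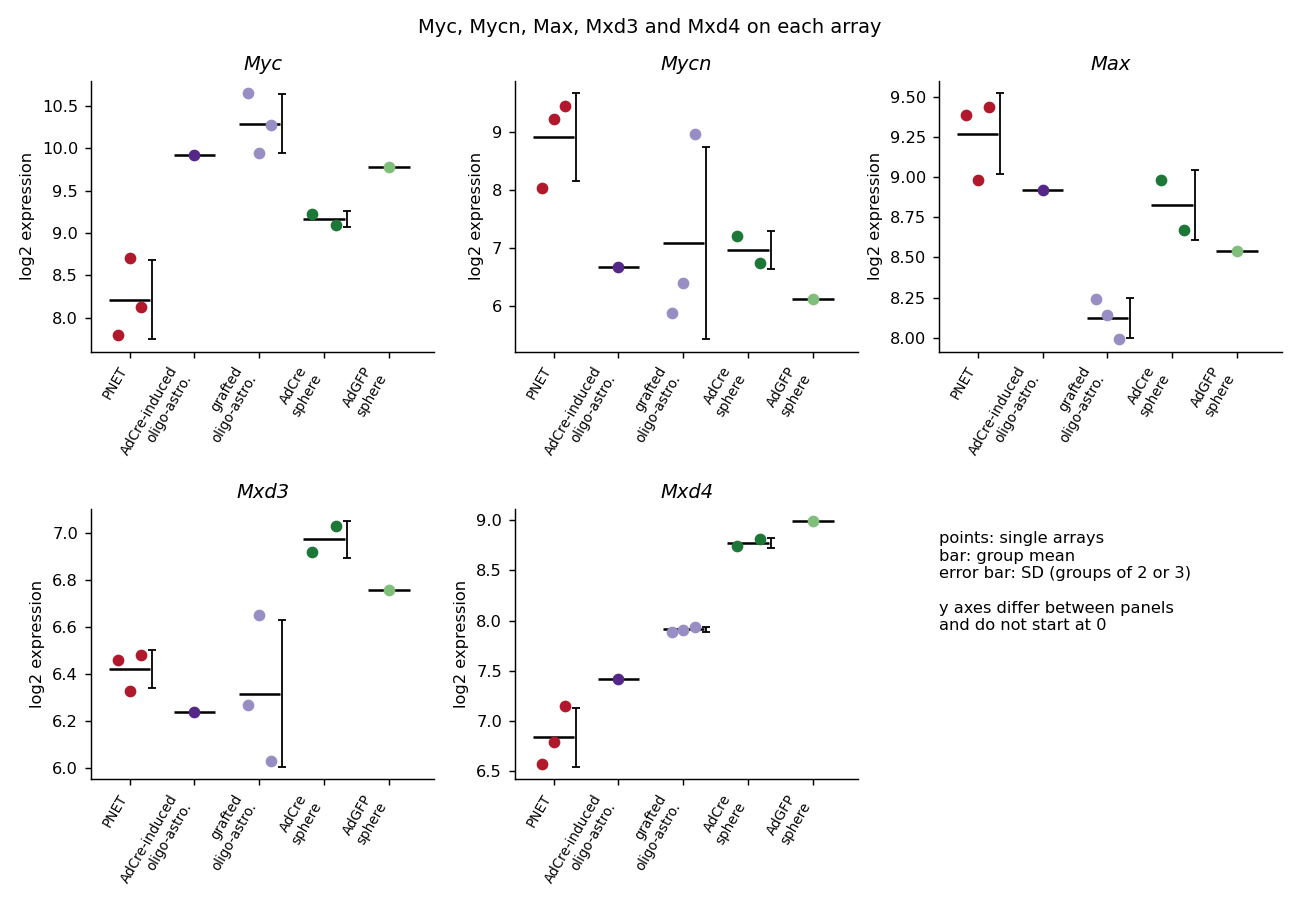
Log2 expression of the 5 measured genes (y axis, its range set for each panel) in the 5 groups (x axis). Each point is 1 array, the bar is the group mean, and the error bar is the SD in groups of 2 or 3. Myc lay at 8.71 or less in every PNET and at 9.10 or more on every other array, and 1 graft at 8.98 for Mycn lay among the PNETs.

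Myc, the most widely used activator of the family, was 7.79, 8.71 and 8.13 in the PNETs. It was 9.92 in the AdCre-induced oligo-astrocytoma, 10.65, 9.95 and 10.28 in the grafts, 9.23 and 9.10 in the AdCre spheres and 9.78 in the AdGFP sphere. The PNETs were thus the 3 lowest arrays, the AdCre spheres lay just above them, and the oligo-astrocytomas were the 4 highest. PNETs averaged 8.21 ± 0.47 (SD, n = 3) and oligo-astrocytomas 10.20 ± 0.34 (SD, n = 4). The change was -1.99 ± 0.26 (SE) on the log2 scale, a level 3.98-fold lower in PNETs (limma, adjusted p = 0.001244). That call held under all 16 alternatives run for it, with changes of -2.24 to -1.72. Set against the single AdCre-induced oligo-astrocytoma alone, which arose by the same route as the PNETs, Myc in PNETs differed by -1.72 ± 0.39 (limma, adjusted p = 0.04426).

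Relative to AdCre spheres, Myc was higher in the oligo-astrocytomas by 1.04 ± 0.29 (limma, adjusted p = 0.02379) and lower in the PNETs, with a change of -0.96 ± 0.31 (limma, adjusted p = 0.03602). Split by route, the first change was 1.13 ± 0.31 in the grafts (limma, adjusted p = 0.02497) and 0.76 ± 0.41 in the single AdCre-induced tumour. With sample number as a block it was 1.15 and did not pass (limma, adjusted p = 0.2313). From the AdGFP sphere the grafts differed by 0.51 ± 0.39 and the AdCre-induced tumour by 0.14 ± 0.48. Neither tumour type overlapped the AdCre spheres, but the share of all genes without overlap was not counted, here or for the other members. The higher level in oligo-astrocytomas was 1.53 after quantile normalization, but it missed the threshold without either AdCre sphere (adjusted p = 0.09208 without number 1 and 0.1214 without number 2). The change in PNETs was -0.60 relative to the median gene, and after quantile normalization it was -0.33 (adjusted p = 0.5092). It was also lost without PNET 1, PNET 3 or either AdCre sphere, at adjusted p between 0.08554 and 0.1557.

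Mycn, the form of Myc tied to neural progenitors, was 8.05, 9.24 and 9.46 in the PNETs. It was 6.67 in the AdCre-induced oligo-astrocytoma, 5.88, 6.41 and 8.98 in the grafts, 7.21 and 6.74 in the AdCre spheres and 6.13 in the AdGFP sphere. Graft 6 thus lay within the PNET range, and the other 6 arrays that were not PNETs read 7.21 or less. PNETs averaged 8.92 ± 0.76 (SD, n = 3) and oligo-astrocytomas 6.99 ± 1.37 (SD, n = 4). The difference of 1.93 ± 0.67 did not pass the test (limma, adjusted p = 0.09852). Without graft 6 it was 2.60 ± 0.39 (limma, adjusted p = 0.004747), so that single library decides the call.

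Against AdCre spheres, Mycn in PNETs differed by 1.94 ± 0.80 and did not pass (limma, adjusted p = 0.08817). The 2 groups did not overlap for Mycn, nor for any other measured member, among them Max and Mxd3, which did not pass either. It passed in 3 of 13 alternatives, namely with the compared groups alone (adjusted p = 0.0213), with array weights (2.12, adjusted p = 0.04764) and with both sphere kinds as 1 group (2.22, adjusted p = 0.02861). In oligo-astrocytomas Mycn differed from AdCre spheres by 0.01, with a wide 95% interval of -1.71 to 1.72. Within groups, Mycn had a residual SD of 1.07, larger than that of 98.8% of the 14807 named genes, whose median was 0.27. Myc had 0.36, Max 0.34, Mxd4 0.24 and Mxd3 0.19.

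High Mycn and high Myc occurred together on 1 array. Graft 6 read 8.98 for Mycn and 10.28 for Myc, near the middle of the grafts for Myc. In the PNETs every array was above the 10-array mean for Mycn, which was 7.48, and below that for Myc, which was 9.35.

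Max, the obligate partner of both Myc and Mxd proteins, was 9.39, 8.98 and 9.44 in the PNETs. It was 8.92 in the AdCre-induced oligo-astrocytoma, 8.24, 8.14 and 7.99 in the grafts, 8.98 and 8.67 in the AdCre spheres and 8.54 in the AdGFP sphere. The grafts were the 3 lowest arrays, and the AdCre-induced tumour was closer to the PNETs and spheres than to the grafts. PNETs averaged 9.27 ± 0.25 (SD, n = 3) and oligo-astrocytomas 8.32 ± 0.41 (SD, n = 4), a change of 0.95 ± 0.24 (limma, adjusted p = 0.03292). Against the grafts alone it was 1.14 ± 0.19 (adjusted p = 0.007485), and against the AdCre-induced tumour alone 0.35 ± 0.27 (adjusted p = 0.5767). The call was lost without PNET 1, without PNET 3, or without any 1 graft, at adjusted p between 0.07416 and 0.1192.

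Against AdCre spheres, Max differed by -0.50 ± 0.27 in oligo-astrocytomas (limma, adjusted p = 0.189) and by 0.44 ± 0.29 in PNETs (limma, adjusted p = 0.2656). The first became 0.02 and the second 1.06 (adjusted p = 0.01665) after quantile normalization. The grafts alone were lower than AdCre spheres, with a change of -0.70 ± 0.21 (limma, adjusted p = 0.038).

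Mxd4, a repressor usually linked to differentiation, was 6.57, 6.79 and 7.15 in the PNETs. It was 7.42 in the AdCre-induced oligo-astrocytoma, 7.89, 7.91 and 7.94 in the grafts, 8.74 and 8.81 in the AdCre spheres and 8.99 in the AdGFP sphere. The PNETs, the oligo-astrocytomas and the spheres thus formed 3 ranges that did not overlap, but the share of all genes that do so was not counted. PNETs averaged 6.84 ± 0.30 (SD, n = 3), oligo-astrocytomas 7.79 ± 0.25 (SD, n = 4) and AdCre spheres 8.77 ± 0.05 (SD, n = 2). PNETs differed from oligo-astrocytomas by -0.95 ± 0.20 (limma, adjusted p = 0.0129), and from the AdCre-induced tumour alone by -0.58 ± 0.26 (limma, adjusted p = 0.2813), which did not pass. They differed from AdCre spheres by -1.93 ± 0.24, a level 3.82-fold lower (limma, adjusted p = 0.0004183), and this call held under all 13 alternatives run for it, at -2.09 to -1.33. Oligo-astrocytomas differed from AdCre spheres by -0.98 ± 0.22 (limma, adjusted p = 0.009675), and after quantile normalization by -0.45 (adjusted p = 0.1986). The last call was also missed without either AdCre sphere (adjusted p = 0.05393 without number 1 and 0.06315 without number 2).

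Mxd3, the member found in dividing progenitors, varied least, from 6.03 to 7.03 over the 10 arrays. It was 6.46, 6.33 and 6.48 in the PNETs, 6.24 in the AdCre-induced oligo-astrocytoma, 6.27, 6.65 and 6.03 in the grafts, 6.92 and 7.03 in the AdCre spheres and 6.76 in the AdGFP sphere. All 3 spheres were above all 7 tumours, but the share of all genes with this pattern was not counted. The change in oligo-astrocytomas relative to AdCre spheres was -0.68 ± 0.20 (limma, adjusted p = 0.02698), in PNETs -0.55 ± 0.21 (limma, adjusted p = 0.06337). After quantile normalization they were -0.36 (adjusted p = 0.209) and -0.13 (adjusted p = 0.6578), and the first missed the threshold in 9 of its 16 alternatives, among them without the AdCre-induced tumour, graft 4, graft 6 or either AdCre sphere. Between the tumour types Mxd3 differed by 0.12, with a 95% interval of -0.27 to 0.51.

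**Figure D2:**
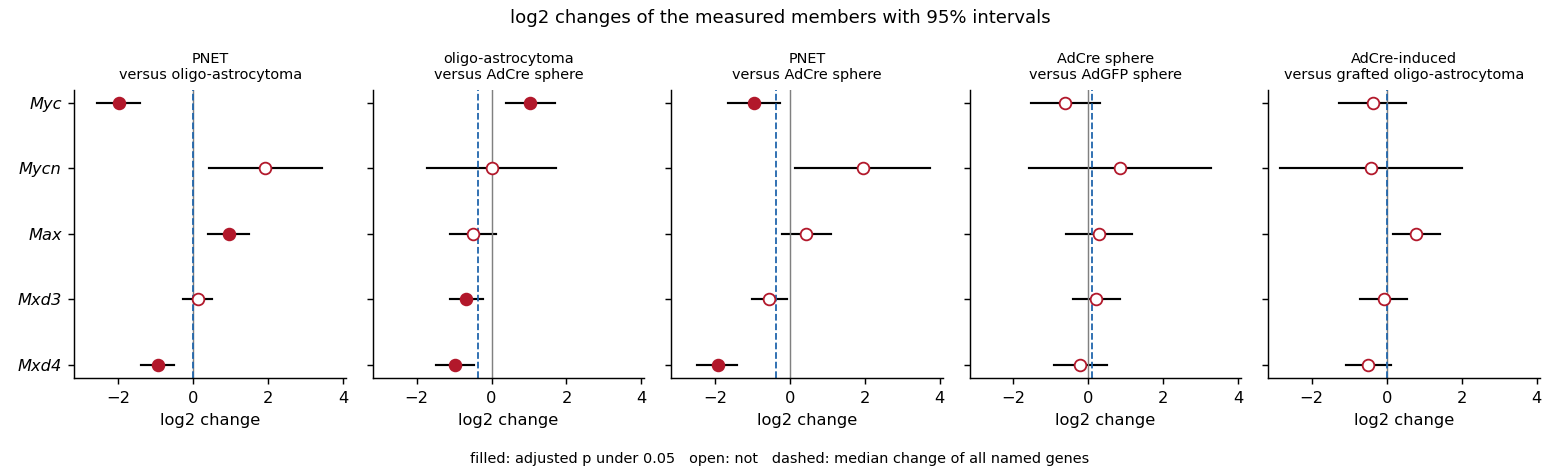
Log2 change (x axis) of each measured gene (y axis) in the 5 comparisons, first-named group minus second, with 95% intervals from limma. Filled points passed an adjusted p under 0.05, open points did not, and the dashed line is the median change of all named genes. Myc in PNETs against oligo-astrocytomas at -1.99 and Mxd4 in PNETs against AdCre spheres at -1.93 lie farthest to the left among the filled points.

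From the highest mean to the lowest, the 5 groups ran as follows for each gene. Myc went grafted oligo-astrocytoma, AdCre-induced oligo-astrocytoma, AdGFP sphere, AdCre sphere, PNET. Mycn went PNET, grafted oligo-astrocytoma, AdCre sphere, AdCre-induced oligo-astrocytoma, AdGFP sphere. Max went PNET, AdCre-induced oligo-astrocytoma, AdCre sphere, AdGFP sphere, grafted oligo-astrocytoma. Mxd3 went AdCre sphere, AdGFP sphere, PNET, grafted oligo-astrocytoma, AdCre-induced oligo-astrocytoma, and Mxd4 went AdGFP sphere, AdCre sphere, grafted oligo-astrocytoma, AdCre-induced oligo-astrocytoma, PNET. Of the 20 pairs of neighbours in these orders, 2 passed the test, beside 2.87% of neighbouring pairs over all transcript clusters. They were Myc in PNETs against AdCre spheres (-0.96, limma adjusted p = 0.03972) and Mxd4 in grafts against AdCre spheres (-0.86, limma adjusted p = 0.01631). The other 18 steps did not pass. Failing the test does not place a step within the spread of its groups, since the AdCre-induced tumour lay outside the range of the grafts and of the PNETs for Mxd4.

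AdCre spheres and the AdGFP sphere were set against each other to address the loss of p53 and Rb in culture. The groups also differ in the virus they received, p53 was not read here, and the effects of Cre or GFP and of the deletion cannot be told apart. None of the 5 genes passed limma's test here, beside 0.0172% of transcript clusters. None had an unadjusted p under 0.05, beside 1152 of all 23238 transcript clusters. Myc averaged 9.16 in AdCre spheres and was 9.78 in the AdGFP sphere, a change of -0.62 with a 95% interval of -1.54 to 0.31. For Mycn the means were 6.98 and 6.13, with a change of 0.84 and an interval of -1.58 to 3.27. Max, Mxd3 and Mxd4 differed by 0.29, 0.21 and -0.21. With 1 AdGFP sphere, assumed to vary like the other groups, changes of these sizes were not detectable.

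The AdCre-induced oligo-astrocytoma differed from the grafted ones by route of induction. No member passed limma's test here either, beside 0.301% of transcript clusters. An unadjusted p under 0.05 was found for 1 member, beside 1755 of all 23238 transcript clusters. That gene was Max, at 8.92 in the AdCre-induced tumour and 8.12 in the grafts, a change of 0.79 ± 0.27 (limma, adjusted p = 0.4838). Myc differed by -0.37 ± 0.39 and Mxd4 by -0.49 ± 0.26, with the AdCre-induced value below all 3 grafts for both. Mycl, the third Myc form, read 6.04 in that tumour and 7.13 to 7.53 in the grafts, a change of -1.25 ± 0.37 (limma, adjusted p = 0.3814). Microglia and macrophage markers had a mean level of 8.28 in the AdCre-induced tumour and 6.57 to 7.61 in the grafts, and their part in these differences was not tested.

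The other genes of the network, all 7 of them measured, changed in both directions. In PNETs against oligo-astrocytomas 1 was higher and 2 lower, against 7.06% and 9.26% of named genes. Mlxipl, a glucose-responsive partner of Mlx, was 5.61, 6.44 and 6.95 in the PNETs and 5.05 to 5.35 in the oligo-astrocytomas, a change of 1.15 ± 0.28 (limma, adjusted p = 0.02564). Mlxip, its paralog, was 6.39 to 6.53 in the PNETs and 7.08 to 7.54 in the oligo-astrocytomas, a change of -0.79 ± 0.16 (limma, adjusted p = 0.01271). Mycl was 6.07, 5.15 and 5.33 in the PNETs and 6.04 to 7.53 in the oligo-astrocytomas, a change of -1.46 ± 0.36 (limma, adjusted p = 0.02814). The AdCre-induced tumour overlapped the PNETs for Mycl, and against that tumour alone the change was -0.52 (adjusted p = 0.5374). The Mycl and Mlxipl calls were each lost in 7 of 16 alternatives, among them without PNET 2, PNET 3, graft 5 or graft 6, without graft 4 for Mycl and without the AdCre-induced tumour for Mlxipl. The Mlxip call was lost in 3 of 16 alternatives. These were without PNET 3 (limma, adjusted p = 0.05258), with sample number as a block (-0.84, limma adjusted p = 0.1387), and against the AdCre-induced tumour alone (-0.70). Mxd1, Mnt, Mga and Mlx differed by 0.66, 0.11, 0.15 and -0.37 and did not pass.

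Against AdCre spheres 1 of these 7 genes was higher and 2 were lower in oligo-astrocytomas, beside 3.19% of named genes higher and 28.3% lower. In PNETs 1 was higher and 4 were lower, beside 5.43% and 32.2%. Mga, a Max partner that silences germline genes, read 8.63 to 9.03 in oligo-astrocytomas and 8.87 to 9.16 in PNETs, against 8.05 and 8.21 in AdCre spheres. Its changes were 0.75 ± 0.18 (limma, adjusted p = 0.01242) and 0.91 ± 0.19 (limma, adjusted p = 0.005683), and it was higher after quantile normalization too, by 1.29 and 1.54. The call in oligo-astrocytomas was lost without AdCre sphere 1 (adjusted p = 0.0944). Mxd1 was lower in oligo-astrocytomas, at -1.59 ± 0.23 (limma, adjusted p = 0.001393), and in PNETs, at -0.94 ± 0.24 (limma, adjusted p = 0.01493). After quantile normalization these were -1.07 (adjusted p = 0.01199) and -0.30 (adjusted p = 0.3879), and the PNET call was also lost without either AdCre sphere. Mlx, the partner of the Mondo factors, was lower in oligo-astrocytomas (-1.10 ± 0.23, limma adjusted p = 0.006539) and in PNETs (-1.47 ± 0.24, limma adjusted p = 0.001756). The first of these missed the threshold after quantile normalization (adjusted p = 0.09686). Mycl (-2.18 ± 0.43, limma adjusted p = 0.0042) and Mlxip (-0.63 ± 0.19, limma adjusted p = 0.03191) were lower in PNETs. The Mlxip call was lost after quantile normalization (-0.18, adjusted p = 0.5499) and without PNET 2, PNET 3 or either AdCre sphere. Mnt did not pass against AdCre spheres in either tumour type, at -0.46 and -0.35, nor did Mlxipl, at -0.30 and 0.85.

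**Figure D3:**
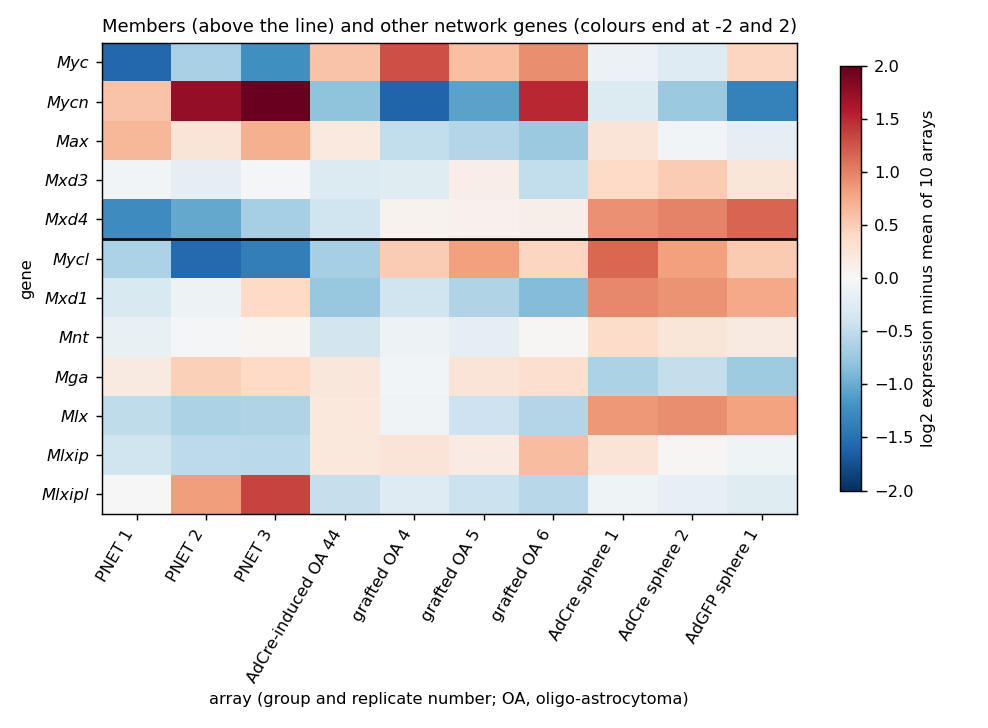
Log2 expression of the 5 measured members (above the line) and the 7 other network genes (rows) on the 10 arrays (columns), each gene minus its own mean over the arrays. Colours end at -2 and 2. Mxd4 and Mlx are above their means in the 3 spheres and below them in the 3 PNETs, and Mycn is above its mean in the PNETs and graft 6.

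Genes that Myc is known to raise were read from 2 lists. Of 30 genes of nucleolus and ribosome assembly measured, 0 were higher and 5 lower in PNETs against oligo-astrocytomas, with a median change of -0.24 where all named genes had -0.01 and 9.26% of them were lower. The lower ones included Ddx21, a nucleolar RNA helicase (-1.09 ± 0.16, limma adjusted p = 0.002101), Noc4l, a ribosome assembly factor (-1.03 ± 0.18, limma adjusted p = 0.006338), and Mybbp1a, a nucleolar regulator (-0.83 ± 0.17, limma adjusted p = 0.01221). The list mean per array was 7.35 to 7.63 in the PNETs, 7.63 to 7.87 in the oligo-astrocytomas and 7.80 to 7.92 in the spheres. Of 23 genes of metabolism, translation and cell cycle, 0 were higher and 2 lower, the kinase Cdk4 (-0.90 ± 0.18, limma adjusted p = 0.01261) and the spermidine synthase Srm (-0.67 ± 0.17, limma adjusted p = 0.03119). After quantile normalization this second list had 2 higher and 2 lower, and the nucleolar list 1 higher and 3 lower. In their promoters, 18.9% of the nucleolar and 31.6% of the metabolic windows held an E-box, against 7.15% of all promoters.

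Against AdCre spheres the counts of both target lists moved with the scaling. For the nucleolar list the calls went from more lower than higher to more higher than lower. In oligo-astrocytomas 2 nucleolar genes were higher and 4 lower as deposited, and 5 were higher and 0 lower after quantile normalization. Ddx21 (0.80 ± 0.18, limma adjusted p = 0.0087) and Utp20, a factor of small ribosome subunit assembly (0.98 ± 0.22, limma adjusted p = 0.008896), were the 2 higher genes. The metabolic list had 0 higher and 9 lower in oligo-astrocytomas, led by cyclin D2, Ccnd2 (-2.77 ± 0.43, limma adjusted p = 0.001932), and 0 higher and 1 lower after quantile normalization. In PNETs the metabolic list also had 0 higher and 9 lower, against 2 higher and 3 lower after quantile normalization, and the nucleolar list had 2 higher and 9 lower, against 4 higher and 1 lower. Among all named genes 3.19% were higher and 28.3% lower in oligo-astrocytomas, and 5.43% higher and 32.2% lower in PNETs.

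Of the 6 genes that Myc is known to repress, 2 were higher and 1 lower in PNETs against oligo-astrocytomas, beside 7.06% and 9.26% of named genes. Cdkn1a, which encodes the cell-cycle inhibitor p21, averaged 9.05 in PNETs and 6.07 in oligo-astrocytomas, a change of 2.98 ± 0.43 (limma, adjusted p = 0.002201). Gadd45a, a growth-arrest gene, differed by 1.10 ± 0.24 (limma, adjusted p = 0.01561). Both are also targets of p53, one of the genes deleted here. Ndrg2, which is also abundant in astrocytes, averaged 7.42 in PNETs and 10.50 in oligo-astrocytomas, a change of -3.08 ± 0.43 (limma, adjusted p = 0.001926). Astrocyte markers had mean levels of 5.56 to 6.25 in PNETs and 7.55 to 8.01 in oligo-astrocytomas, and their part in this was not tested. In oligo-astrocytomas against AdCre spheres 4 of the 6 were lower and 0 higher, beside 28.3% and 3.19% of named genes, and 3 were lower after quantile normalization. Cdkn2b, the inhibitor p15, was -2.36 ± 0.23 (limma, adjusted p = 0.0004281) and Cdkn1b, the inhibitor p27, -1.83 ± 0.28 (limma, adjusted p = 0.00174). Cdkn1a was lower by -2.26 ± 0.49 (limma, adjusted p = 0.00781). In PNETs against AdCre spheres 3 were lower and 0 higher, beside 32.2% and 5.43% of named genes. After quantile normalization 2 were lower. The 3 were Ndrg2 (-3.39 ± 0.52), Cdkn2b (-2.09 ± 0.25) and Cdkn1b (-1.29 ± 0.29), so lower Cdkn2b and Cdkn1b were not particular to oligo-astrocytomas. Cdkn1a was not among them, and averaged 9.05 in PNETs and 8.32 in AdCre spheres.

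**Figure D4:**
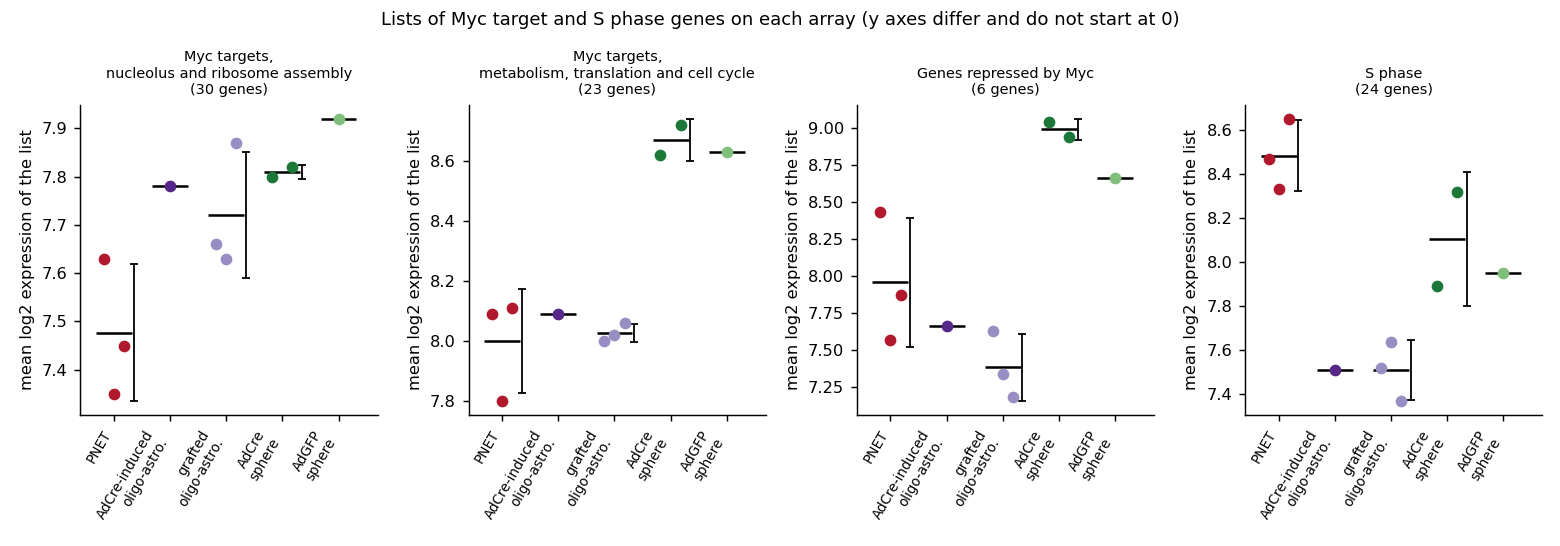
Mean log2 expression (y axis, its range set for each panel) of the measured genes of 4 lists on each array, by group (x axis). Points are single arrays, bars are group means and error bars are SD in groups of 2 or 3. S phase genes lie at 8.33 to 8.65 in the PNETs and at 7.37 to 7.64 in the oligo-astrocytomas, while nucleolar Myc targets have their lowest mean in the PNETs.

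Genes of S phase, the DNA synthesis phase, were higher in PNETs than in oligo-astrocytomas. Of 24 measured, 13 were higher and 0 lower in PNETs against oligo-astrocytomas, which is 54.2% against 7.06% of named genes, with a median change of 0.77. Cyclin E2, Ccne2, differed by 2.11 ± 0.56 (limma, adjusted p = 0.03874). Slbp, which serves histone messages, averaged 5.84 in PNETs and 3.03 in oligo-astrocytomas and passed (limma, adjusted p = 0.0005351), but it lay below the lower quartile of the array in all 4 oligo-astrocytomas, so the size of its change is uncertain. At least 1 E2F motif stood in 36.0% of the S phase promoters, against 2.26% of all promoters. Of 24 mitosis genes, 3 were higher and 0 lower, with a median of 0.55. In PNETs against AdCre spheres 5 S phase genes were higher and 1 lower, and after quantile normalization 15 were higher and 0 lower. In oligo-astrocytomas against AdCre spheres 0 were higher and 8 lower, and after quantile normalization 2 were higher and 2 lower. As deposited, 5.43% of named genes were higher and 32.2% lower in PNETs, and 3.19% higher and 28.3% lower in oligo-astrocytomas.

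Of the 9 measured regulators upstream of Myc and Mycn, 2 were higher and 2 lower in PNETs against oligo-astrocytomas, beside 7.06% and 9.26% of named genes. E2f1, an activator of S phase genes that is counted in both lists, averaged 8.56 in PNETs and 6.71 in oligo-astrocytomas, a change of 1.85 ± 0.24 (limma, adjusted p = 0.001416). E2f2, its close relative, differed by 0.97 ± 0.20 (limma, adjusted p = 0.0119). The Mycn promoter with its 3 E2F matches is shown above, and binding was not measured. Notch1, a receptor that activates Myc in some tissues, averaged 7.26 in PNETs and 9.71 in oligo-astrocytomas, a change of -2.45 ± 0.34 (limma, adjusted p = 0.001699). Tcf7l2, a Wnt pathway factor that is also active in the oligodendrocyte lineage, averaged 6.55 in PNETs and 8.60 in oligo-astrocytomas, a change of -2.05 ± 0.27 (limma, adjusted p = 0.001307). All 8 oligodendrocyte precursor markers were lower in the same comparison, and their part in these changes was not tested.

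Of 15 cofactors of Myc and Mxd proteins, 0 were higher and 3 lower in PNETs against oligo-astrocytomas, beside 7.06% of named genes higher and 9.26% lower. They were Ep400 (-0.76 ± 0.20, limma adjusted p = 0.03611) and Trrap (-0.61 ± 0.15, limma adjusted p = 0.02533), subunits of acetyltransferase complexes that Myc recruits, and Smarcb1, a chromatin remodelling subunit that binds Myc (-0.54 ± 0.15, limma adjusted p = 0.04157). After quantile normalization 0 of the 15 passed in either direction. In oligo-astrocytomas against AdCre spheres 3 were higher and 3 lower, against 4 and 0 after quantile normalization, and in PNETs 0 were higher and 5 lower, against 4 and 1. The lower genes were 20.0% of the list in oligo-astrocytomas, where 28.3% of named genes were lower, and 33.3% in PNETs, where 32.2% were. These lower shares were near or under the background. The 3 higher genes in oligo-astrocytomas were 20% of the list, beside 3.19% of named genes. They were Ep400 (1.05 ± 0.23, limma adjusted p = 0.007657), Bptf (0.87 ± 0.21, limma adjusted p = 0.01214) and Trrap (0.55 ± 0.17, limma adjusted p = 0.03052). In PNETs 5.43% of named genes were higher.

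The 10 measured genes of Myc protein turnover showed 0 higher and 0 lower between the tumour types. The largest difference was 0.71 ± 0.34, for the phosphatase subunit Ppp2r5a (limma, adjusted p = 0.2306). An unadjusted p under 0.05 was found for 1 of the 10, beside 5920 of all 23238 transcript clusters. Against AdCre spheres 1 was higher and 3 lower in oligo-astrocytomas, and 1 was higher and 2 lower in PNETs. These 3 and 2 lower genes of 10 are near or under the share of named genes that were lower, 28.3% in oligo-astrocytomas and 32.2% in PNETs. The higher one was Huwe1, a ubiquitin ligase that acts on Myc and Mycn, in both oligo-astrocytomas (0.87 ± 0.16, limma adjusted p = 0.004412) and PNETs (0.92 ± 0.17, limma adjusted p = 0.003335). Ppp2r5a was lower in oligo-astrocytomas (-2.08 ± 0.38, limma adjusted p = 0.003925) and in PNETs (-1.37 ± 0.40, limma adjusted p = 0.02553). After quantile normalization these counts were 1 higher and 1 lower in oligo-astrocytomas, and 2 higher and 0 lower in PNETs. Since protein was not measured, these values say nothing on the amount of Myc protein.

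Markers of some cell types foreign to the cultures were higher in the tumours. Microglia and macrophage markers had mean levels of 6.57 to 8.28 in oligo-astrocytomas and 6.04 to 6.83 in PNETs, against 4.75 to 4.93 in spheres, where Ctss and Ptprc lay below the lower quartile of every array. Of the 16 markers 12 were higher in oligo-astrocytomas and 7 in PNETs relative to AdCre spheres, beside 3.19% and 5.43% of all named genes. Endothelial markers were higher for 10 of 12 and 5 of 12, with Tek and Emcn below the lower quartile in every sphere. Lymphocyte markers had 0 of 7 higher in either tumour type and 1 lower in oligo-astrocytomas, where 28.3% of named genes were lower. Of 5 fibroblast markers 1 was higher in each tumour type, and of 3 red blood cell markers 1 was higher in oligo-astrocytomas and 0 in PNETs. The part of these cells in the changes of Myc, Mxd3 and Mxd4 against AdCre spheres was not tested.

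The named genes whose pattern over the 10 arrays was nearest to a member were found by the root mean square difference of log2 values, after each gene was centred on its own mean. For Myc, whose values spanned 2.87, they were Gnptab (0.34), Zkscan1 (0.35), Cdk14 (0.37) and Mink1 (0.37). Gnptab read 5.96 to 6.83 in the PNETs and 8.07 or more elsewhere, so it shared with Myc the gap between PNETs and all other arrays. For Mycn, which spanned 3.58, the nearest were Egflam (0.63), Fhod3 (0.66), Atp2b3 (0.69) and Rdh1 (0.69). In graft 6, where Mycn was within the PNET range, each of the 4 genes read below its lowest PNET. Atp2b3, for instance, read 7.55, 8.77 and 8.38 in the PNETs and 6.35 in graft 6. For Mxd4, which spanned 2.42, Ttc39c (0.15), Lman2 (0.18), Nipa1 (0.19) and Zfp637 (0.19) were nearest, and each was lowest on average in PNETs and highest in spheres. Max spanned 1.44 and Mxd3 less than that, under the 2 log2 units asked for this search.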

How the data were processed

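The deposited values are log2 expression, 1 per transcript cluster and array, made by the authors with Partek and RMA on build mm8, per the submitters' processing notes. Versions were not given in the sources used here, and the series text names both array versions. The values were used as deposited, with no filter or pseudocount. Symbols came from the array's platform annotation (14939 transcript clusters with 1 symbol, 989 with several, 7310 with none). For a gene with several transcript clusters, the one with the highest mean over the 10 arrays was taken. Each measured member had 1.

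Comparisons used limma 3.58.1 in R 4.3.3 (lmFit and eBayes, two-sided, Benjamini-Hochberg over 23238 transcript clusters, adjusted p under 0.05), with all 10 arrays in 4 groups sharing 1 spread, or 5 groups where the oligo-astrocytomas were split by route. The script was tested on simulated data. Alternatives were quantile normalization, median centring, a filter on dim transcript clusters, trended and robust moderation, array weights, compared groups alone, sample number as a block, other groupings, and leaving out each replicate. Of each list, up to 3 genes in each direction with the largest change past the threshold are named, or the 1 largest where none passed, and some of these are left out for space. The members and lists were chosen with earlier results of these data known. Promoters were searched for fixed motifs on both strands.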

Additional observations from a re-analysis of the deposited data

Results flagged for a closer look

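Mxd4 in the oligo-astrocytomas had 1 sample far from the others. The AdCre-induced tumour read 7.42 and the grafts 7.89, 7.91 and 7.94, so that the gap to the nearest sample was 0.895 of the whole range of the 4. Chance alone can set a sample apart in this way, and 12 genes were looked at, 5 members and 7 other network genes. How often chance gives a gap of this size was not computed. The sample set apart is also the only 1 of the 4 that was not grafted, so the 4 are not like samples. The grafts lay within 0.05 of each other on the log2 scale, and the AdCre-induced tumour differed from their mean by -0.49.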

How the results depend on the processing

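Of 320 changes of members recomputed under alternatives, 270 kept their direction and side of the threshold, 34 lost a call, 7 gained one and 9 changed sign. The count of changed members in PNETs against oligo-astrocytomas, 3, was 1 with the replicate block and 1 with the AdCre-induced tumour alone, and 2 to 3 with a replicate left out. For oligo-astrocytomas against AdCre spheres the count of 3 was 1 after quantile normalization, 0 with the replicate block, 1 with the AdCre-induced tumour alone, and 0 to 3 with a replicate left out (0 without either AdCre sphere). For PNETs against AdCre spheres the count of 2 was 1 after median centring, 1 with the replicate block, and 1 to 2 with a replicate left out (1 without PNET 1, PNET 3 or either AdCre sphere), but 3 with array weights and 3 with both sphere kinds as 1 group. Both other comparisons stayed at 0 under every alternative run. Leaving out 1 AdCre sphere leaves 1 sample, assumed to vary like the other groups.

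Changes of sign were confined to differences that had not passed. In oligo-astrocytomas against AdCre spheres Max became 0.02 after quantile normalization and 0.09 with the AdCre-induced tumour alone, and Mycn became -0.04 with array weights, -0.81 with the replicate block, -0.31 with the AdCre-induced tumour alone, -0.66 without graft 6 and -0.23 without AdCre sphere 2, with a range of -0.66 to 0.38 over replicates left out. In PNETs against AdCre spheres Mnt became 0.02 after quantile normalization. In the AdCre-induced tumour against grafts Mxd3 became 0.09 without graft 5 (range -0.22 to 0.09 over grafts left out) and Mycn 0.53 without graft 6 (range -1.02 to 0.53). In PNETs against AdCre spheres Myc lost its call in 8 of 13 alternatives, among them median centring (-0.82, adjusted p = 0.08126). The cause was not tested. Sample numbers 1 and 2 are shared by PNETs and AdCre spheres, and the labels do not say whether they pair these samples. Deviations from group means correlated at -0.0329 for number 1 and -0.0579 for number 2. With 2 AdCre spheres, their deviations mirror each other, so these values cannot settle whether the samples are paired. A mean over several transcript clusters of a gene gave no other value, since each member had 1.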

Other observations

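Mycn was high in 1 graft, so its neighbours on chromosome 12 were read there, a choice made after the Mycn values were seen and with no test. Ddx1, the next measured gene on one side, read 11.00 in graft 6, above the other 9 arrays, and 10.09 and 10.18 in grafts 4 and 5. Cyria, the next on the other side, read 8.24 in graft 6 against 7.05 and 7.28 in grafts 4 and 5, but 8.16 in the AdCre-induced tumour and 9.41 to 9.75 in the spheres. Smc6 read 8.74 in graft 6 against 7.54 and 8.18 in grafts 4 and 5, and 8.88 to 9.15 in the PNETs. Nbas, beyond Ddx1, read 8.26 in graft 6, between 8.40 and 8.16 in grafts 4 and 5. Vsnl1 read 5.95 in graft 6 against 6.01 and 4.90 in grafts 4 and 5, and Lratd1 6.95 against 5.66 and 7.77, so 3 of these 6 neighbours were highest in graft 6 among the grafts and 3 were not. No DNA copy number was measured.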
